A study of Mus musculus with 6 samples.

Results

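The glucocorticoid receptor gene Nr3c1, 7 genes known as its targets (Fkbp5, Tsc22d3, Sgk1, Dusp1, Zbtb16, Klf9 and Cebpd) and the metallothionein genes Mt1 and Mt2 were followed in the mouse heart. They were picked by gene symbol as well-known members of the pathway, with earlier results of these data known. They made up 10 of the 45777 genes of the count table. All 10 averaged 10 counts or more per library, the level needed to be tested. The hearts came from female BALB/c nude (CAnN.Cg-Foxn1nu/Crl) mice that were 6 weeks old when the experiment began. Every group, Control included, carried a tumour grown from MDA-MB-231, a human breast cancer cell line, under the skin. These athymic mice lack most T cells. For 3 weeks they received ginsenoside Rh2 daily at 1 of 2 doses (the groups Rh2-20 mg/kg and then Rh2-30 mg/kg), doxorubicin at 2 mg/kg every other day up to 22 mg/kg in all (Dox), Dox joined with the lower (Rh2-20 mg/kg + Dox) or the higher Rh2 dose (Rh2-30 mg/kg + Dox), or neither agent (Control). Each of the 6 groups gave 1 RNA library, pooled from 5 hearts, so no group had a replicate.

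The glucocorticoid receptor is a nuclear receptor that is held in the cytoplasm by Hsp90 and its cochaperones, moves to the nucleus when corticosterone binds, and switches genes on at palindromic DNA elements. It is active in cardiomyocytes and in most other cells of the heart. Metallothioneins are small cysteine-rich proteins that bind zinc and other metals and take up reactive oxygen species, and their genes respond both to metals, through the factor Mtf1, and to glucocorticoids. Rh2 is a ginseng saponin built on a triterpene skeleton, and doxorubicin is an anthracycline that intercalates into DNA, poisons topoisomerase II and damages the heart. The design asks what Rh2 adds to or takes from the effect of doxorubicin on the heart.

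The libraries held 86164411 to 90621002 counts. The heart was recognisable in each of them, with 18700 to 25500 CPM (counts scaled to a common library total) summed over 6 cardiomyocyte markers, while 4 liver markers summed to 1.39 to 1.68 CPM and 4 T cell markers to 0.854 to 2.82 CPM. The Rh2-30 mg/kg library also held fat RNA: Ucp1, the uncoupling protein of brown fat, had 6442 counts there and 0 to 12 elsewhere, and the white fat markers Adipoq, Plin1, Cidec and Lep summed to 68.4 CPM there against 0.15 to 14.1 CPM. Lep itself was at 0 in 5 of the 6 libraries, Rh2-30 mg/kg among them, and was detected only in Dox. The white fat markers summed to 14.1 CPM in Dox against 1.27 CPM in Control. Summed erythroid markers ran from 1050 CPM in Rh2-30 mg/kg + Dox to 6900 CPM in Dox. Counts below were scaled by the trimmed mean of M-values (TMM) and are called normalized counts.

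Between genes, levels were compared as FPKM, which divides by transcript length. Mt1 had the highest level, with a median of 135.7 FPKM over the 6 libraries (66.6 to 190), and its lowest library lay above the highest library of every other member. Sgk1 (28.6 FPKM, 19.7 to 34.9), Dusp1 (23.2 FPKM, 16.2 to 33.5), Zbtb16 (22.1 FPKM, 21.3 to 42.5), Mt2 (18.7 FPKM, 6.78 to 30.5) and Tsc22d3 (15.8 FPKM, 10.7 to 18.2) followed, and the ranges of neighbours in this order overlapped. Fkbp5 and Nr3c1 shared a median of 10.4 FPKM, but Fkbp5 spread from 3.96 to 21.3 FPKM and Nr3c1 only from 8.02 to 10.9 FPKM. Cebpd (6.40 FPKM, 3.42 to 8.87) and Klf9 (5.99 FPKM, 4.49 to 7.06) were lowest. Since the libraries were made by capture with designed baits, an FPKM also depends on how well a gene was captured.

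The members also differed in how widely they varied. The log2 range of normalized counts over the 6 libraries had a median of 1.05 over the 10 members and of 0.607 over the 18328 tested genes. Fkbp5 spanned 2.44 (log2), more than 92.5% of tested genes, and Mt2 spanned 2.11, more than 90.6%. Nr3c1 spanned 0.37, more than only 23.6%. The receptor gene was thus the steadiest of the set, and Klf9 (0.66), Tsc22d3 (0.69) and Sgk1 (0.70) lay near the middle of all genes.

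**Figure D1:**
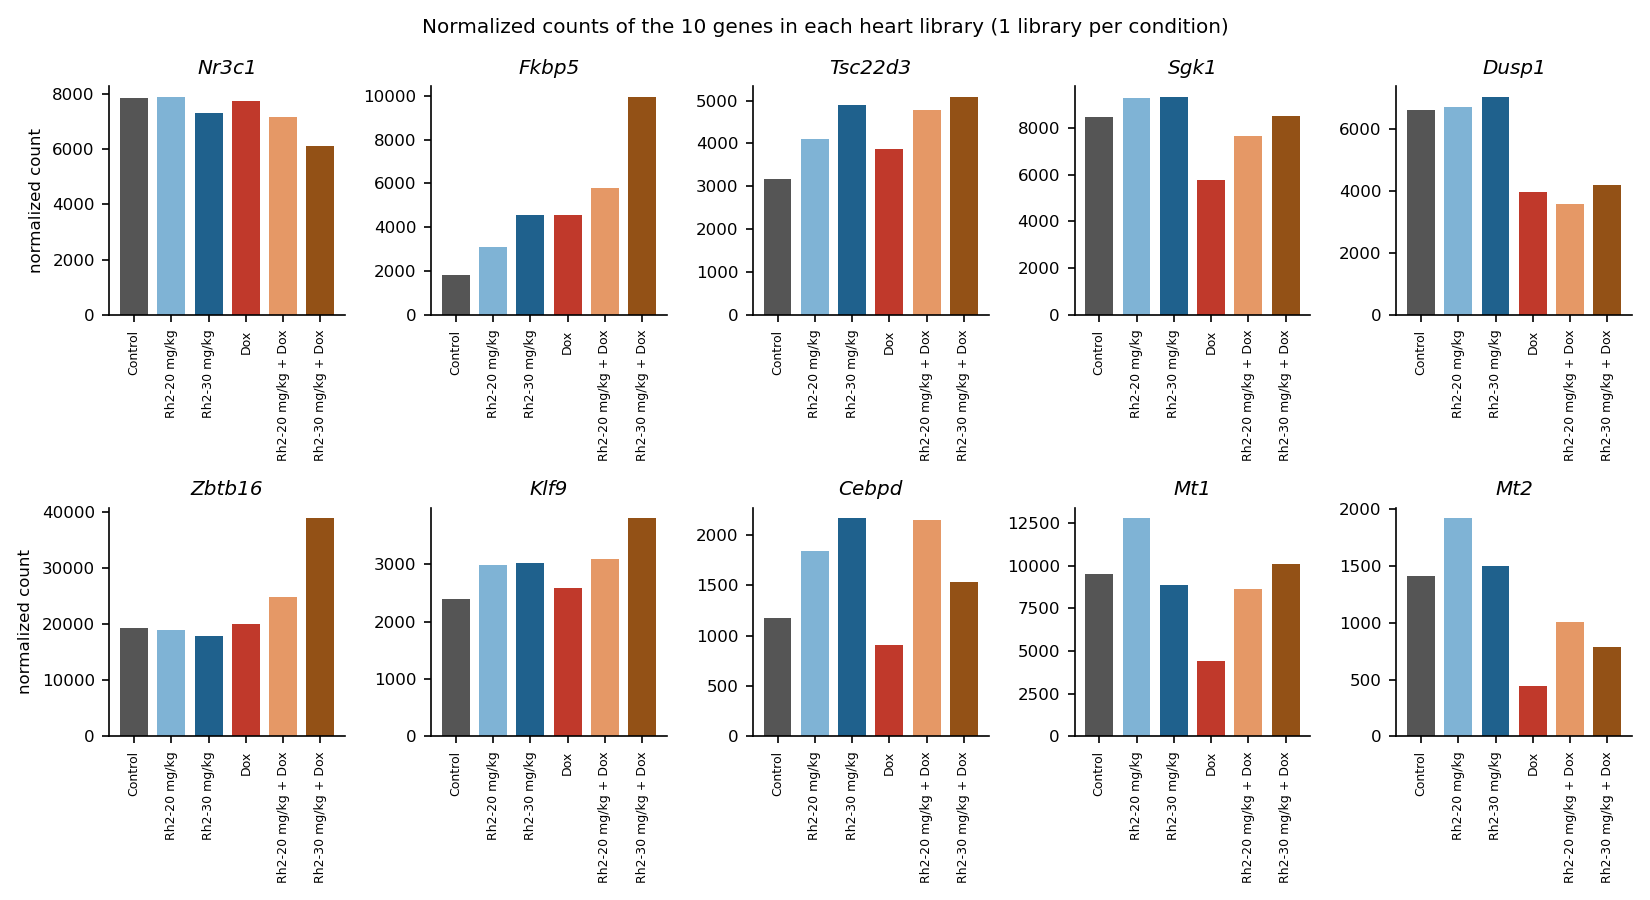
Normalized counts (y axis, from 0) of the 10 genes in the 6 heart libraries, 1 bar per library with no replicate and so no error bar. Fkbp5 goes from 1837 in Control to 9945 in Rh2-30 mg/kg + Dox, Dusp1 is low in the 3 libraries with Dox, and Mt1 and Mt2 are lowest in Dox.

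Nr3c1 (gene ID 14815, chromosome 18) encodes the receptor itself. Control had 7855 normalized counts of it, Rh2 alone 7879 at 20 mg/kg and 7281 at 30 mg/kg, Dox alone 7729, and the combinations 7153 (20 mg/kg) and 6103 (30 mg/kg). The combination with 30 mg/kg was the lowest, at 0.777 of Control (log2 ratio -0.36). Its 95% interval from counting error was -0.41 to -0.31, and the wider interval that adds the dispersion between libraries was -1.04 to 0.31. In bulk tissue, fewer cells of a type and less RNA per cell cannot be told apart. Each of the comparisons below reads libraries that also differ in treatment, so that the p-values measure spread across conditions and not between replicate hearts. Nr3c1 did not pass in either contrast (quasi-likelihood test of edgeR, Benjamini-Hochberg adjustment, log2 difference -0.13 ± 0.11 (SE) for Dox, adjusted p = 0.721, and -0.14 ± 0.10 for Rh2, adjusted p = 0.684).

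Fkbp5 (gene ID 14229, chr17:28398753-28486149, RefSeq, build GRCm38.p6, which is mm10) encodes the cochaperone FKBP51, which lowers the receptor's affinity for hormone and is induced by it as a short feedback loop. Its normalized counts were 1837 in Control, 3115 and 4561 with Rh2 alone at 20 and 30 mg/kg, 4561 with Dox alone, and 5773 and 9945 when Dox was joined with the lower and the higher Rh2 dose. Every treated library was above Control, the order followed the Rh2 dose both with and without Dox, and the library with both agents at the higher Rh2 dose was the highest. Against Control, Fkbp5 was 1.70-fold (20 mg/kg) and 2.48-fold (30 mg/kg) higher with Rh2 alone, 2.48-fold higher with Dox alone, and 3.14-fold and 5.41-fold higher with Dox plus the same doses. Set against the same Rh2 dose without Dox, the combinations were 1.85-fold (20 mg/kg) and 2.18-fold (30 mg/kg) higher. The latter ratio is to the library that held fat RNA, whose part was not tested. The wider interval stayed above 0 in all 5 ratios to Control, from 0.08 to 1.44 (log2) in Rh2-20 mg/kg to 1.76 to 3.12 in Rh2-30 mg/kg + Dox. With the larger Cox-Reid estimate of the dispersion, chosen after seeing the data, 4 of the 5 stayed above 0, and the ratio of Rh2-20 mg/kg had an interval of -0.42 to 1.94.

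Over all libraries, Fkbp5 was higher by 1.09 ± 0.39 (log2, SE) with Dox (edgeR's quasi-likelihood test, adjusted p = 0.422) and by 0.92 ± 0.27 with Rh2, with Dox as a term (adjusted p = 0.567). Neither passed after adjustment. The groups overlapped in both contrasts, with Dox and Rh2-30 mg/kg at the same normalized count. The interaction of the 2 agents was -0.28 ± 0.56 (log2, SE, adjusted p = 0.989), so a difference of the Dox effect with and without Rh2 was not detectable with these libraries.

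Tsc22d3 (gene ID 14605, chrX:140539528-140600522) encodes GILZ, a leucine zipper protein that carries part of the anti-inflammatory action of glucocorticoids. It had 3159 normalized counts in Control and 3879.7 in Dox, while Rh2 alone had 4093 (20 mg/kg) and 4897 (30 mg/kg) and the combinations 4775 (20 mg/kg) and 5086 (30 mg/kg). All 4 libraries with Rh2 lay above both libraries without it, and within each Dox arm the higher dose had the higher value. The difference with Rh2 was 0.43 ± 0.10 (log2, SE, edgeR's quasi-likelihood test, adjusted p = 0.567), and with Dox it was 0.18 ± 0.18 (adjusted p = 0.781). The 1.61-fold higher value of Rh2-30 mg/kg + Dox was its furthest from Control, with a wider interval of 0.01 to 1.36 (log2).

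Klf9 (gene ID 16601, chr19:23141226-23168129), a Krüppel-like transcription factor, had 2399.8 normalized counts in Control and 2583 in Dox, 2994 and 3018 with Rh2 alone at 20 and 30 mg/kg, and 3096 and 3799.9 when these doses were given with Dox. As for Tsc22d3, the 4 libraries with Rh2 did not overlap the 2 without it. Its log2 difference with Rh2 was 0.37 ± 0.11 (SE, edgeR's quasi-likelihood test, adjusted p = 0.567).

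Cebpd (gene ID 12609, chr16:15887286-15889545) encodes C/EBPδ, a transcription factor of the acute phase response that glucocorticoids and inflammatory cytokines both induce. Its normalized counts were 1178 in Control and 908.4 in Dox, 1837 (20 mg/kg) and 2163.5 (30 mg/kg) under Rh2 alone, and 2149 (20 mg/kg) and 1529.9 (30 mg/kg) under Rh2 with Dox. Again the libraries with Rh2 were all above those without, but with Dox the lower Rh2 dose had the higher value. Cebpd had the largest Rh2 estimate after Fkbp5, 0.89 ± 0.17 (log2, SE), and it did not pass either (edgeR's quasi-likelihood test, adjusted p = 0.567). Compared with Dox alone it was 2.37-fold higher in Rh2-20 mg/kg + Dox, with a wider interval of 0.56 to 1.93 (log2), and 1.68-fold higher at the other dose, with one of 0.07 to 1.44. The Rh2-30 mg/kg library, where Cebpd was 1.84-fold above Control and Fkbp5 2.48-fold, is the one that held fat RNA, whose part in these ratios was not tested.

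Zbtb16 (gene ID 235320, chr9:48651797-48836225) encodes PLZF, a zinc finger repressor that is strongly induced by glucocorticoids in many human cells. Control had 19351 normalized counts and Dox alone 20001, Rh2 alone had 18925.5 (20 mg/kg) and 17855 (30 mg/kg), and Dox with Rh2 had 24786 (20 mg/kg) and 38900.2 (30 mg/kg). The libraries with 1 agent lay near Control, and the 2 libraries with both agents stood above them. The Rh2-30 mg/kg + Dox library was 2.01-fold above Control (wider interval 0.33 to 1.68, log2), 1.95-fold above Dox and 2.18-fold above the same Rh2 dose alone. That last reference, Rh2-30 mg/kg, held fat RNA. Against it the 6 cardiomyocyte markers were also all higher in Rh2-30 mg/kg + Dox (median log2 ratio 0.595). The part of tissue make-up in the ratio was not tested. All 3 libraries with Dox were above all 3 without, by 0.58 ± 0.23 (log2, SE, edgeR's quasi-likelihood test, adjusted p = 0.47). The interaction term was 0.74 ± 0.41 (adjusted p = 0.988) and did not pass.

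Sgk1 (gene ID 20393, chr10:21882184-21999903) encodes a kinase of ion channels and cell survival. Its RefSeq start sites number 6, and the 300 bases around 1 of them (250 before to 50 after the start) hold a full palindrome for the receptor, the half-site AGAACA and its reverse complement TGTTCT 3 bases apart. The stretch at chr10:21993696-21993720 (plus strand) is shown because it is the one such palindrome in the members' windows, with both half-sites in capitals.
Sgk1: cggaaAGAACAgaaTGTTCTcggag
The palindrome occurred in 3 of 32851 windows of all genes (0.00913%), while the half-site alone, on either strand, was in 19.0% of them. It begins 189 bases before that start site. Windows were found for 7 members, with 14 windows in all, and outside Sgk1 the half-site matched in 1 of the 3 windows of Tsc22d3 and in none of those of Fkbp5, Klf9, Dusp1, Mt1 and Mt2. Cebpd, Zbtb16 and Nr3c1 had no window. A match is a description of the letters and not a bound site.

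Sgk1 had 8477 normalized counts in Control, 9293 and 9324 with Rh2 alone (20 and 30 mg/kg), 5757.5 with Dox alone, and 7647 and 8497 with Dox and these Rh2 doses. Dox was the lowest, at 0.679 of Control (wider interval -1.23 to 0.12, log2), and the 2 libraries with both agents were 1.33-fold and 1.48-fold above it. The Rh2 difference was 0.31 ± 0.11 (log2, SE, edgeR's quasi-likelihood test, adjusted p = 0.568), with overlapping groups. With Dox the difference was -0.31 ± 0.15 (adjusted p = 0.546).

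Dusp1 (gene ID 19252, chr17:26505591-26508472) encodes MKP-1, a phosphatase that switches off p38 and JNK kinases. It is a target of the receptor and an immediate early gene as well. Without Dox it had 6611 (Control), 6678 (Rh2 at 20 mg/kg) and 7019 (Rh2 at 30 mg/kg) normalized counts, and with Dox it had 3948 (Dox alone), 3569 (Rh2 at 20 mg/kg) and 4185 (Rh2 at 30 mg/kg). All 3 libraries with Dox lay below all 3 without, with a gap wider than the spread inside either arm. The Dox difference was -0.80 ± 0.09 (log2, SE) and had the smallest adjusted p of any member, which still missed the threshold of 0.05 (edgeR's quasi-likelihood test, adjusted p = 0.083). With Rh2 the difference was 0.01 ± 0.09 (adjusted p = 0.976). Other immediate early genes had the same sign: of 15 in a list, 14 were lower with Dox, 9 of them at an unadjusted p under 0.05 (10.1% of tested genes, either direction), with a median log2 difference of -0.84 against -0.015 over all tested genes. The other gene, Ier3, was higher with Dox at an unadjusted p under 0.05 (0.63 ± 0.16, SE, edgeR's quasi-likelihood test, adjusted p = 0.314), and it is named after its values were seen. With Rh2 14 of the 15 were lower too, 1 of them at an unadjusted p under 0.05, with a median of -0.19 against 0.011. In the Rh2-20 mg/kg library, which had no Dox, 14 were below Control (median log2 ratio -0.64). The Rh2-30 mg/kg library did not show the same, with 6 of the 15 above Control (median -0.10). None was called after adjustment with Dox or with Rh2. With Dox, 7 to 11 had an unadjusted p under 0.05 as lower when any 1 library was left out. Nr4a3, an orphan nuclear receptor, went from 1091 to 2370.1 normalized counts without Dox to 280.9 to 382.3 with it (log2 difference -2.22 ± 0.31, SE, adjusted p = 0.115), and Egr2, a zinc finger factor, from 79.6 to 266.8 to 30.5 to 61.0 (-1.75 ± 0.50, adjusted p = 0.344). Egr3 (-1.40 ± 0.57, adjusted p = 0.472) and Fosb (-0.96 ± 0.53, adjusted p = 0.592) had the same sign.

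The metallothionein genes lie 5315 bases apart, Mt2 (gene ID 17750) at chr8:94172618-94173567 and Mt1 (gene ID 17748) at chr8:94178883-94180327. The 250 bases before the Mt2 start (chr8:94172368-94172617, plus strand) are shown for their metal response elements, the sites of Mtf1. Capitals mark the core TGCACNC or TGCGCNC on either strand.
Mt2: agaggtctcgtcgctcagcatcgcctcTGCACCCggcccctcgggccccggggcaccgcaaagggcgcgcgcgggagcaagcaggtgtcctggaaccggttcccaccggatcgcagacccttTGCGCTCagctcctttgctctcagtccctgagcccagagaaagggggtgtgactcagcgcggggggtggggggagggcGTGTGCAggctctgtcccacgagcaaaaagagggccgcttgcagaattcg
This stretch holds 3 matches, and a 4th lies just after the start. The Mt1 window, chr8:94178839-94179138, held 3 matches. They are given as short stretches, with the core in capitals, for comparison with Mt2.
Mt1 first match: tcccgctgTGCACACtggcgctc
Mt1 second match: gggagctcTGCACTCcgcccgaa
Mt1 last match: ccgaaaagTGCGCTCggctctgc
The stretches lie at chr8:94179058-94179080, chr8:94179083-94179105 and chr8:94179101-94179123, within the RefSeq model of Mt1, which starts further upstream. At least 1 match was found in 25.7% of the 32851 windows of all genes. Dusp1 and 1 of the Sgk1 windows had 1 match each.

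Mt1 had 9509 normalized counts in Control, 12777 and 8887 under 20 and 30 mg/kg of Rh2, 4442 under Dox, and 8626 and 10095 when Dox was combined with the lower and the higher Rh2 dose. The Dox library stood apart below the other 5. It was 2.14-fold lower than Control (log2 ratio -1.10, wider interval -1.77 to -0.42). Combined treatment lay 1.94-fold (20 mg/kg) and 2.27-fold (30 mg/kg) above Dox alone.

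For Mt2 the normalized counts were 1415.5 in Control, 1920.5 (20 mg/kg) and 1501 (30 mg/kg) with Rh2, 443.1 with Dox, and 1012 (20 mg/kg) and 785.8 (30 mg/kg) with Rh2 and Dox. Dox was again the lowest, 3.19-fold below Control (log2 ratio -1.67, wider interval -2.37 to -0.98). Unlike Mt1, Mt2 was below every library without Dox in both libraries with Rh2 and Dox, which were 2.28-fold (20 mg/kg) and 1.77-fold (30 mg/kg) above Dox alone. Against the same Rh2 dose without Dox, Mt2 was 1.90-fold (20 mg/kg) and 1.91-fold (30 mg/kg) lower. The latter ratio is to the library that held fat RNA, whose part was not tested. The Mt2 difference with Dox was -1.11 ± 0.29 (log2, SE, edgeR's quasi-likelihood test, adjusted p = 0.327), and that of Mt1 was -0.43 ± 0.30 (adjusted p = 0.675). With Rh2 edgeR's differences were 0.63 ± 0.23 for Mt2 (adjusted p = 0.568) and 0.61 ± 0.25 for Mt1 (adjusted p = 0.571). The interaction terms, 0.89 ± 0.36 for Mt1 and 0.75 ± 0.35 for Mt2 (adjusted p = 0.988 for both), did not pass. Mt1 and Mt2 are close in sequence, and how shared reads were divided between them rests on the authors' counting.

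**Figure D2:**
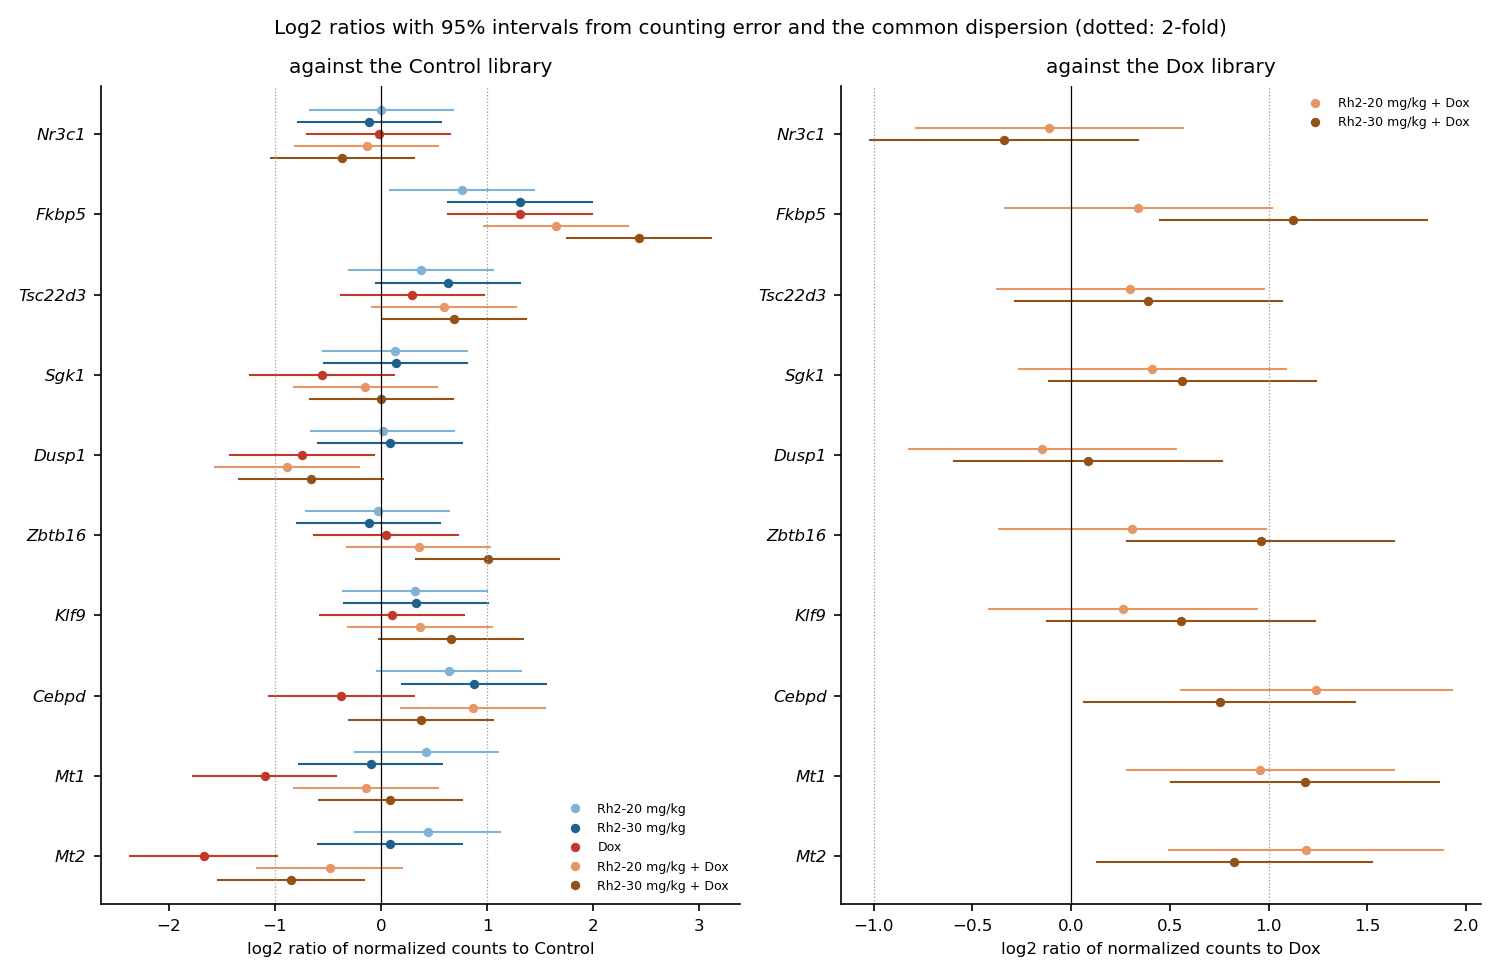
Log2 ratio of normalized counts (x axis) for the 10 genes (y axis), with points coloured by library, against the Control library (left, 5 libraries) and against the Dox library (right, 2 libraries). Lines are 95% intervals from counting error and the common dispersion, dotted lines mark a 2-fold difference, and Fkbp5 is right of 0 in all 5 ratios to Control while Mt1 and Mt2 are left of it in Dox.

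A ratio to Control of at least 2-fold either way was reached by 3 members in Dox (9.02% of tested genes), by 0 (6.15%) and 1 (10.1%) with Rh2 alone at 20 and 30 mg/kg, and by 1 (8.75%) and 2 (10.9%) with Dox and those doses. That made 7 of 50 ratios. Fkbp5 gave 4 of them, and the others were Zbtb16 in Rh2-30 mg/kg + Dox and, as lower values, Mt1 and Mt2 in Dox. The 5 comparisons share the Control library. The wider interval left out 0 in 14 of the 50 ratios, beside 10.8% of the ratios of all tested genes. With the Cox-Reid dispersion 5 remained so, Fkbp5 in the 4 libraries other than Rh2-20 mg/kg and Mt2 in Dox, beside 4.93% of all. Against Dox, 2 members passed with 20 mg/kg Rh2 added (Cebpd and Mt2, 6.51% of tested genes) and 2 with 30 mg/kg added (Fkbp5 and Mt1, 10.1%), all higher. The median log2 ratio of the members to Dox was 0.32 at the lower and 0.66 at the higher dose, beside 0.0043 and -0.025 over all tested genes, and 8 and 9 of the 10 were above Dox. The ratios to Dox share the Dox library, and with 1 library on each side these ratios carry no test.

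With Dox the members split between higher and lower, 4 and 6. None of the 10 was called at an adjusted p under 0.05 (0.0273% of tested genes were, 5 in all), and 4 had an unadjusted p under 0.05 (10.1% of tested genes), Fkbp5 and Zbtb16 higher and Dusp1 and Mt2 lower. The members' median log2 difference was -0.15, beside -0.015 over all tested genes. For Zbtb16, Dusp1 and Mt2, 3 of 10, the groups did not overlap, as for 17% of tested genes. Without the Control library or without the Rh2-20 mg/kg library, 2 members had such an unadjusted p. DESeq2's Wald test called 423 genes with Dox (2.37% of those it gave an adjusted p), among them 2 members, Dusp1 (log2 difference -0.79, adjusted p = 9.91e-12) and Mt2 (-1.10, adjusted p = 0.0105).

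With Rh2 the members leaned one way. Of the 10, 9 were higher in the libraries with Rh2, and the median log2 difference was 0.40 against 0.011 over all tested genes. None was called at an adjusted p under 0.05 by edgeR's quasi-likelihood test, as for every tested gene (0%), and 6 had an unadjusted p under 0.05, all higher (8.74% of tested genes, either direction). Tsc22d3, Klf9 and Cebpd did not overlap between the groups, 3 of 10 beside 19% of tested genes. The count of 6 was 2 without the Dox library, 1 of only 2 without Rh2, where the median was 0.23. Without the Rh2-30 mg/kg library, which held the fat RNA, it was 7. DESeq2's Wald test called 247 genes with Rh2 (1.35%), among them 3 members, Fkbp5 (log2 difference 0.92, adjusted p = 0.0387), Tsc22d3 (0.42, adjusted p = 0.0406) and Cebpd (0.88, adjusted p = 0.00173). For the interaction of the agents no member was called (0% of tested genes were) or had an unadjusted p under 0.05 (2.71% of tested genes).

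**Figure D3:**
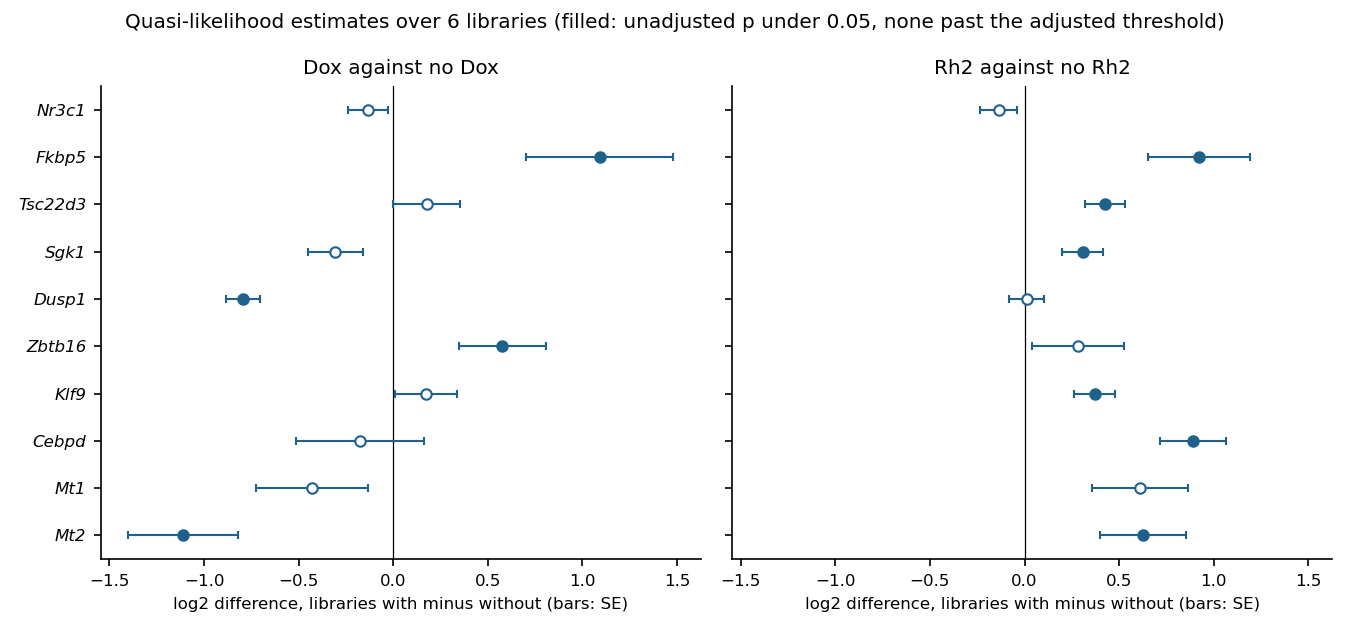
Log2 difference (x axis) between libraries with and without Dox (left) and with and without Rh2 (right) for the 10 genes (y axis), from edgeR's quasi-likelihood fit over 6 libraries, with bars of 1 SE. Filled points had an unadjusted p under 0.05: with Dox 2 of the 4 lie to each side of 0, and with Rh2 all 6 lie to the right.

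The wider pathway was read from lists of known genes. They were chosen with earlier results of these data known, so counts over them are descriptions and not tests. Of 26 further genes known to be induced by glucocorticoids, 24 were higher with Rh2, with a median log2 difference of 0.34 against 0.011 over all tested genes. An unadjusted p under 0.05 was reached by 9 of them as higher and by 1, the insulin receptor substrate Irs2, as lower (8.74% of tested genes, either direction), and none was called after adjustment. With any 1 library left out, 21 to 25 were higher. Cell type markers differed with Rh2 as well. The 4 macrophage markers were all higher (median log2 difference 0.27; summed 173 to 347 CPM with Rh2 and 188 to 242 CPM without) and the 4 erythroid markers all lower (median -1.02; 1050 to 3810 CPM with Rh2 and 2280 to 6900 CPM without), none of them at an unadjusted p under 0.05. The 4 brown fat markers were all higher too (median 5.34; summed 134 to 207 CPM with Rh2 and 121 to 125 CPM without). Of these, 1, Cidea, had an unadjusted p under 0.05 in edgeR's quasi-likelihood test. Ucp1 and Elovl3 were at 0 in both libraries without Rh2. Their log2 differences, 13.54 and 9.68, lift the median, while those of Cidea and Cox8b were 0.998 and 0.266. With Rh2, Ucp1 ran from 7.86 to 6010 normalized counts and Elovl3 from 0 to 422.6, both highest in the library that held fat RNA. Cox8b made up most of the summed level, with 10130 to 16010 normalized counts with Rh2 and 10350 to 10360 without. The part of these cell types in the targets, of which Cd163 and Mertk are also macrophage genes, was not tested. Fam107a, an actin-associated stress protein, had 198.6 normalized counts in Control and 295.8 in Dox, and 463.7 to 785.8 in the 4 libraries with Rh2 (log2 difference 1.27 ± 0.15, SE, edgeR's quasi-likelihood test, adjusted p = 0.381). Ddit4, an inhibitor of mTORC1 signalling, had 790.0 and 723.1 without Rh2 and 1550.2 to 1799 with it (edgeR log2 difference 1.11 ± 0.11, adjusted p = 0.381). It was singled out after its values were seen, as was Nfkbia, the inhibitor of NF-κB, with 4189 and 3114.5 without Rh2 and 5017.5 to 5550.4 with it (0.55 ± 0.10, adjusted p = 0.567). In these 3 genes the groups did not overlap, as for 19% of tested genes.

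Other targets differed more by Dox arm, and these did not overlap between the arms. Angptl4, an inhibitor of lipoprotein lipase, had 349.7 to 860.2 normalized counts without Dox and 136.4 to 222.1 with it (log2 difference -1.65 ± 0.36, SE, edgeR's quasi-likelihood test, adjusted p = 0.247). Hif3a, a hypoxia-inducible factor subunit, went the other way, from 442.8 to 580.3 without Dox to 760.6 to 1944 with it (1.27 ± 0.36, adjusted p = 0.344), and like Fkbp5 and Zbtb16 it was highest in Rh2-30 mg/kg + Dox. With Dox, 12 of the 26 genes were higher and 14 lower. Lcn2, a siderophore-binding protein, had 117.9 to 137.9 normalized counts without Rh2 and 127.8 to 453.7 with it (log2 difference 0.998 ± 0.366, SE, adjusted p = 0.568). It is also a neutrophil granule gene, and 4 neutrophil markers, summing to 4.03 to 16.3 CPM, were highest in the same library, Rh2-20 mg/kg + Dox. The 3 of them that were tested were all higher with Rh2, Ly6g was at 0 in both libraries without Rh2, and their part in the Lcn2 value was not tested.

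**Figure D4:**
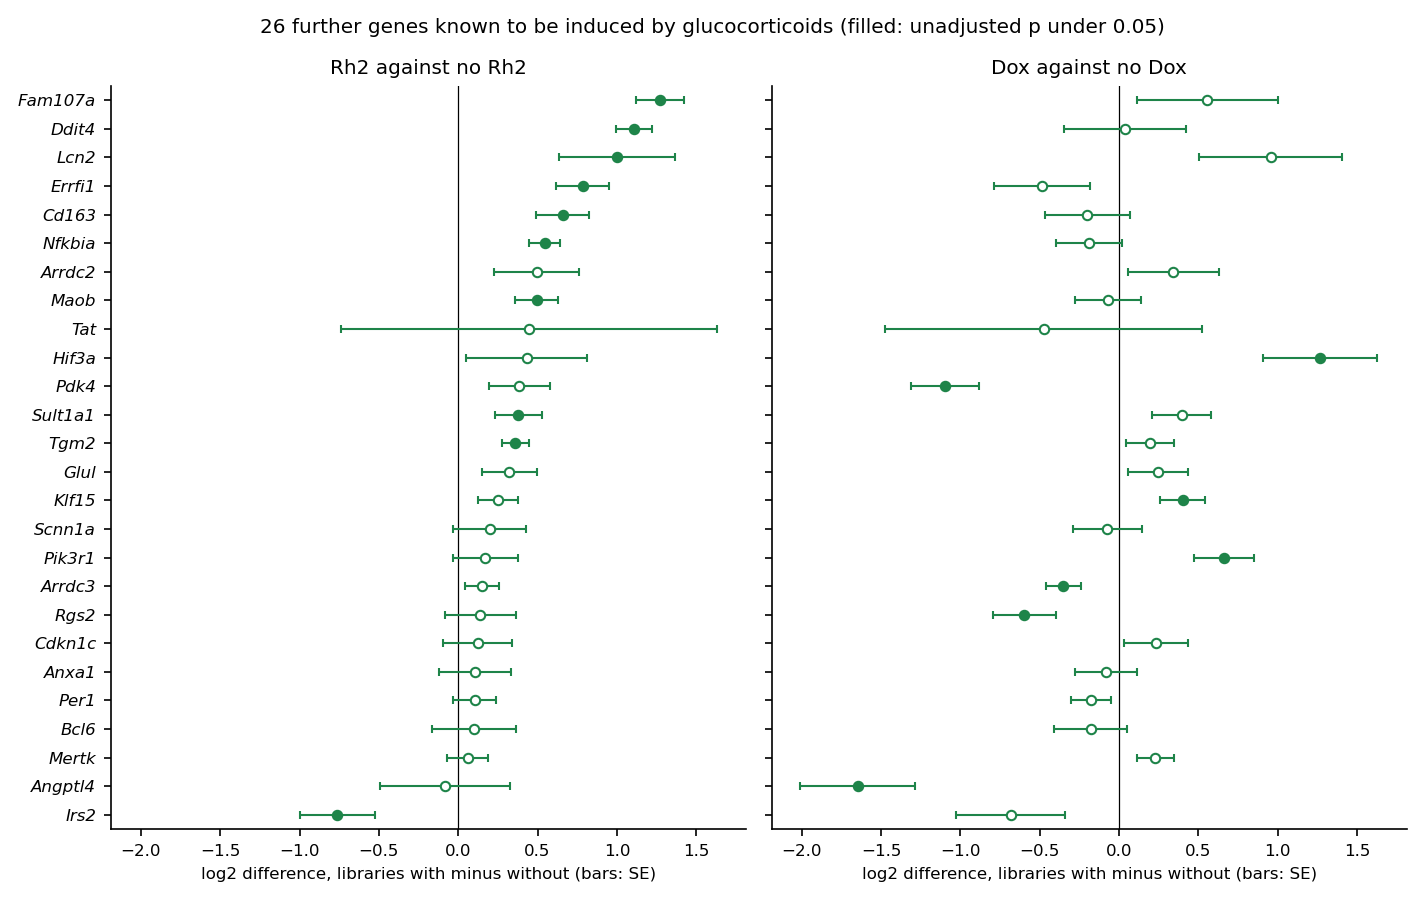
Log2 difference (x axis) with and without Rh2 (left) and with and without Dox (right) for 26 further glucocorticoid-induced genes (y axis, ordered by the Rh2 value), with bars of 1 SE from edgeR's quasi-likelihood fit over 6 libraries and filled points for an unadjusted p under 0.05. With Rh2, 24 of the 26 lie to the right of 0; with Dox they divide into 12 and 14.

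Over 15 inflammatory genes that glucocorticoids repress, levels summed to 56.7 to 132 CPM and were unequal. Vcam1 and Nos2, named for their level, had 2027 to 6211 and 1331.5 to 2154.5 normalized counts, while Il6 had 0 to 36.1. The filter was passed by 12, of which 11 were lower with Dox (median log2 difference -0.59). Of these 4 had an unadjusted p under 0.05 (10.1% of tested genes, either direction), and 2 without Dox, without Rh2-20 mg/kg or without Rh2-30 mg/kg + Dox. With Rh2, 7 were lower and 5 higher (median -0.27, and -0.044 without Rh2-30 mg/kg + Dox). The 2 combinations differed. Against Dox, 7 of the 12 were higher in Rh2-20 mg/kg + Dox (median log2 ratio 0.18, beside 0.0043 over all tested genes). In Rh2-30 mg/kg + Dox 1 was higher (median -0.84 beside -0.025). These ratios are of 1 library to 1 library and carry no test. Cxcl1, a neutrophil chemokine, had 266.8 to 473.6 normalized counts without Dox and 118.1 to 233.6 with it (log2 difference -1.11 ± 0.31, SE, edgeR's quasi-likelihood test, adjusted p = 0.344). Ccl7, a monocyte chemokine, had 150.8 to 205.3 and 31.6 to 118.7 (-1.21 ± 0.45, adjusted p = 0.435). Sele, an adhesion molecule of activated endothelium, overlapped between the arms, and Il1b was the 1 gene of the 12 that was higher with Dox (0.42 ± 0.46, adjusted p = 0.809). Macrophage markers, a source of several of these transcripts, were lower with Dox too, 4 of 4, with summed levels of 242 to 347 CPM without Dox and 173 to 277 CPM with it. Their part in the inflammatory genes was not tested.

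Of 17 genes for a second receptor (Nr3c2) and the receptor's partners (hormone handling, chaperones and coregulators), 16 were tested. With Dox 8 were higher and 8 lower, with Rh2 7 were higher and 9 lower, and none was called. In the Dox library 14 of the 16 were above Control (median log2 ratio 0.13, beside -0.0046 over all tested genes). Against Dox, 14 were lower in Rh2-20 mg/kg + Dox (median -0.13 beside 0.0043) and 12 at the higher dose (median -0.047 beside -0.025). An interaction term below 0 was found for 13 (median -0.14 beside -0.0090). All these counts use the same single Dox library and are not separate observations. Hsp90aa1, the inducible Hsp90, had 19536.5 normalized counts in Rh2-30 mg/kg against 10993 to 15142 elsewhere. The cochaperones Dnajb1 (3451 against 1807 to 2839) and Stip1 (7096 against 4097 to 6286) were highest in the same library. It is the library with the fat RNA, whose part was not tested. The coactivator Ncoa1 was highest in Dox, at 12762 against 8801 to 10499. Among 18 genes of zinc and metal handling, 17 were tested, 6 were higher and 11 lower with Dox, and 11 were higher and 6 lower with Rh2. Mt3, a metallothionein best known from brain, had 347.0 normalized counts in Rh2-30 mg/kg and 27.5 to 50.9 elsewhere, so that it was highest in the library with Ucp1, unlike Mt1 and Mt2. The zinc importer Slc39a8 had 498.2 normalized counts in Rh2-30 mg/kg, 456.6 in the library of the lower dose with Dox and 111.0 to 275.8 elsewhere. Slc39a1, another importer, and Slc30a1, the zinc exporter that Mtf1 switches on with the metallothioneins, were both lowest in Dox, at 932.6 and 1645 normalized counts, against 1253.9 to 1540.4 and 1951 to 2384 elsewhere.

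Glucocorticoids also set clock genes, and 16 were listed. With Dox 11 were higher and 5 lower, with Rh2 4 were higher and 12 lower, and none was called. Per2, a repressor in the core clock, had 12275.5 to 12559 normalized counts without Dox and 17345 to 22326 with it (log2 difference 0.70 ± 0.11, SE, edgeR's quasi-likelihood test, adjusted p = 0.149). Npas2, Cry2 and Hlf, the others with the widest range, overlapped between the Dox arms.

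Over the 6 libraries, the genes whose log2 level went most closely with Fkbp5 were Aqp1 (Pearson r = 0.989), Jpt1 (0.982) and Anapc16 (0.982), out of 8103 candidates that varied. Aqp1, a water channel, went from 3537 normalized counts in Control to 8023 in Rh2-30 mg/kg + Dox. Those most like Tsc22d3 were Spsb1 (0.992), Cfap300 (0.989) and Abat (0.987), and those most like Mt2 were Tigd2 (0.99), Gm5555 (0.99) and Gm18066 (0.989). Within the set, Mt1 went with Sgk1 (r = 0.927) and with Mt2 (0.853), and Nr3c1 ran opposite to Zbtb16 (-0.919), Klf9 (-0.879) and Fkbp5 (-0.869). A single library, Rh2-30 mg/kg + Dox, was lowest for Nr3c1 and highest for Zbtb16, Klf9 and Fkbp5, and r without it was not taken. All these r values are over 6 libraries that share their scaling, and they stand as descriptions only.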

How the data were processed

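Per the submitters' processing notes, the tools were bcl2fastq 2.20.0, Trimmomatic, HISAT2 2.1.0 and StringTie 2.1.3b with mm10. Per the study's methods, the annotation came from the UCSC table browser. The authors deposited a whole-number read count per gene without normalization, an FPKM (scaled by transcript length and library size) and a TPM, which was not used. Libraries were assigned to conditions by their labels.

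Counts were analysed with edgeR 4.0.16 (R 4.3.3), TMM scaling and the 18328 genes that averaged 10 counts or more. Its two-sided quasi-likelihood test, adjusted over all of them by Benjamini and Hochberg, compared Dox with no Dox, Rh2 with no Rh2 (Dox as a term) and their interaction. Ratios used a prior count of 0.5, with 95% intervals from counting error only (exact conditional binomial), and wider ones with a common dispersion of 0.0285 from the 6 libraries. The tests and the counting interval were tried on simulated data with less spread than these libraries had. The wider interval was not tried on simulated data. Alternatives were DESeq2 1.42.0, no filter, total-count scaling, other model terms, FPKM with limma 3.58.1 and each library left out. Figures were drawn with matplotlib 3.10.9. Promoter windows (250 bases before to 50 after a start) are RefSeq's, build GRCm38.p6. Strand handling in counting is not given in the sources used here.

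All members are named; from each list, genes called and the 4 widest in range with a mean of at least 50 counts; for likeness, the 3 highest Pearson r with Fkbp5, Tsc22d3 and Mt2 among genes with at least 50 counts and a log2 range of at least 0.5. Per1 stands in 2 lists. Members and lists were chosen with earlier results of these data known.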

Additional observations from a re-analysis of the deposited data

How the results depend on the processing

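Each condition was 1 pool of hearts, and the wider interval of a ratio spans at least 0.67 (log2) to either side. This is the part from the common dispersion alone, and counting error widens it at low counts. Smaller differences were not resolved. Each condition had 1 library, so replicates could not be paired, but libraries with and without Dox could be compared within each Rh2 dose. The members' ratios to Control past 2-fold, 7 of 50, numbered 6 to 8 under other scalings, prior counts, filters and FPKM. DESeq2 called 423 genes with Dox, 247 with Rh2 and 38 in the interaction, where edgeR's quasi-likelihood test called 5, 0 and 0 (1852, 1602 and 497 at an unadjusted p under 0.05); the cause was not tested. With Dox, 0 were called within Rh2 dose (dose as a factor, 1598 at an unadjusted p under 0.05, 4 of them members) or with FPKM plus 1 in limma, and with 1 library left out 0 to 14 (0 without Control, Rh2-20 mg/kg, Rh2-20 mg/kg + Dox or Dox, 3 without Rh2-30 mg/kg, 14 without Rh2-30 mg/kg + Dox); the interaction had 0 to 1. With 1 library left out, small log2 differences turned in sign: Cebpd with Dox ran from -0.502 (without Rh2-20 mg/kg + Dox) to 0.0915 (without Dox), Dusp1 with Rh2 from -0.0335 (without Rh2-30 mg/kg + Dox) to 0.0651 (without Rh2-20 mg/kg + Dox), Zbtb16 with Rh2 from -0.0735 (without Dox) to 0.671 (without Control), and the interaction of Fkbp5 from -0.723 (without Rh2-30 mg/kg + Dox) to 0.0616 (without Rh2-20 mg/kg + Dox). Chosen after seeing the data, a Cox-Reid dispersion of 0.0864 left 5 of the 14 ratios clear of 0 (those of Fkbp5 other than in Rh2-20 mg/kg, and Mt2 in Dox), and the members' and lists' counts were taken without each library: 8 to 9 of the 10 members were higher with Rh2, 21 to 25 of the 26 further targets were higher with Rh2, and 13 to 14 of the 15 immediate early genes were lower with Dox.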
